A study of Homo sapiens with 9 samples.

Results

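The 8 genes described here encode ABC drug efflux transporters, namely ABCB1, ABCC1, ABCC2, ABCC3, ABCC4, ABCC5, ABCG2 and ABCB6. They were taken by symbol from the 61806 gene identifiers of a count table of HCT116 cells, a human line established from a colorectal carcinoma, and all 8 were found and passed the filter on low counts. The group was chosen by measured values, since the ABCB1 counts of these libraries fell with 1 of the siRNAs only, so the values of ABCB1 are given as a description with no test. The other 7 were named for their place in the same family, with earlier results of these data known.

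The cells carried a control siRNA, the ORM1 siRNA1# or the ORM1 siRNA2#, delivered with Lipofectamine RNAiMax, and each of the 3 groups held 3 libraries. All are the same cell line, share the batch value Day 3, and differ in the labels only by siRNA. The siRNA sequences are not used here. ORM1 encodes orosomucoid 1, a plasma glycoprotein that binds drugs. The labels do not say that replicates were separate cultures, so p-values reflect how much these libraries vary, and that variation may be technical.

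ABC transporters bind and hydrolyse ATP in the cytoplasm and use the energy to carry substrates across a membrane. ABCB1, ABCG2 and several ABCC proteins export drugs and their glutathione, glucuronide or sulfate conjugates, and are known from intestinal epithelium, where they limit uptake from the gut, and from drug-resistant tumour cells. Nuclear receptors, stress-responsive factors and factors that bind CCAAT and GC-rich promoter elements are among their known regulators.

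Totals were 60698684 to 71431723 counts per library. ORM1, the target, had 63, 56 and 59 counts with the control siRNA, 0, 0 and 5 with siRNA 1, and 8, 0 and 12 with siRNA 2. It fell with each siRNA (edgeR adjusted p = 0.00287 and 0.0190), but the siRNA 2 call was lost without any 1 of the control libraries or siRNA 2 replicate 1, at adjusted p-values of 0.0504 to 0.0573, with no count filter, at 0.0544, and in DESeq2, at 0.0725. ORM2, its near-identical neighbour, whose reads may be shared with it, was at 19.3% and 14.5% of the control mean and did not pass (adjusted p = 0.0939 and 0.0657). It passed in DESeq2 (0.0322 and 0.0111), in limma-voom (0.0328 and 0.0379) and in a fit of only the groups compared (0.0479 and 0.0226). It also passed without siRNA 1 replicate 1 for siRNA 1 (0.0476) and without siRNA 1 replicate 3 for siRNA 2 (0.0283). Of 10 markers of colorectal epithelium, 6 exceeded a mean of 1 CPM (counts scaled to a common library size after TMM normalization), among them EPCAM, CDH1, KRT8 and CDX2, while CDX1 was at 0 in all libraries and VIL1, CDH17 and LGALS4 were below that level. The summed level of that list was 4203 to 4499 CPM in control, 3556 to 3727 CPM with siRNA 1 and 3600 to 3799 CPM with siRNA 2. Most of that sum is keratin RNA (KRT8, KRT18 and KRT19), which fell with both siRNAs, whereas EPCAM rose (log2 change 0.48 and 0.42, adjusted p = 3.7e-07 and 2.13e-06), as did CDH1 (0.70 and 0.10, adjusted p = 2.46e-08 and 0.0419). The endothelial and hepatocyte lists summed to at most 2.77 CPM in any library. The leukocyte and fibroblast lists held 1 gene each above that mean, CD68 and COL1A1, and without these summed to at most 0.957 CPM. The part of these shifts in the results below was not tested.

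Promoter sequences were found for 6 of the 8 genes in RefSeq on GRCh38.p14, in 11 windows that run from 250 bases before to 50 bases after a start site. ABCB1 has a pair of annotated start sites, and the inner one and ABCB6 are shown because these genes had the lowest levels relative to control with siRNA 1. The minus-strand windows lie at chr7:87600835-87601134 and chr2:219218909-219219208, and are written 5′ to 3′ on the gene's strand. Capitals mark the matches, on both strands, to 4 motifs. These are the box CCAAT that NF-Y binds, the GC box with the letters GGGCGG that Sp factors bind, the TATA box searched as TATAAA, and the palindromic E-box with the letters CACGTG. No match of 1 motif overlapped that of another in the windows shown.
ABCB1: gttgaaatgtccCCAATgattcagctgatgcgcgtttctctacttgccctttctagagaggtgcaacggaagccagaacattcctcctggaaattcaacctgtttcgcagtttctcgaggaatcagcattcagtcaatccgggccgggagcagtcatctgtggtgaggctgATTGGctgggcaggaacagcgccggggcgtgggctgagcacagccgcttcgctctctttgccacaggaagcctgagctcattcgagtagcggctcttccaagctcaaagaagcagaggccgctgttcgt
ABCB6: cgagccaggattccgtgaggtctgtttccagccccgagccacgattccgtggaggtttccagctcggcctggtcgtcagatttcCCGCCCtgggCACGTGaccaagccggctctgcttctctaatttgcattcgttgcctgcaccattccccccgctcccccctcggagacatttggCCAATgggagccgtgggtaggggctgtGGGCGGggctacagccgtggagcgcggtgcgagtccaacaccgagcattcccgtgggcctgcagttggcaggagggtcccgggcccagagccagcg

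The ABCB1 window held the forward CCAAT from position −238 and the same box on the other strand from position −79, counted from the start site. The ABCB6 window held GC boxes from −166 and −46, the E-box from −156 and CCAAT from −73, and neither window held TATAAA. Of 35116 RefSeq promoter windows of this length, 34.6% held CCAAT, 45.0% the GC box, 11.5% TATAAA and 7.26% CACGTG, each on either strand. The outer ABCB1 window held none of the 4 motifs. These matches describe letters only and were not tied to the levels below.

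ABCB1 encodes P-glycoprotein, an exporter of many hydrophobic drugs such as taxanes, anthracyclines and vinca alkaloids. The gene (ENSG00000085563) lies on the minus strand of chromosome 7, from 87503633 to 87713323 in GENCODE 29 on GRCh38. The 3 control libraries held 584, 587 and 530 ABCB1 counts, against 222, 262 and 335 with siRNA 1 and 510, 564 and 450 with siRNA 2. Every siRNA 1 library was below every control and every siRNA 2 library, while the siRNA 2 and control libraries overlapped.

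The ABCB1 level was 8.76 ± 0.69 CPM (SD, n = 3, as for all levels below) in control, 4.10 ± 0.73 CPM with siRNA 1 and 7.53 ± 1.04 CPM with siRNA 2. These means were 46.8% and 85.9% of control, with log2 changes of −1.09 and −0.22, and the log2 difference between the siRNAs was −0.88. The siRNA 1 value ranged from −1.25 to −1.01 over the alternatives tried, and the siRNA 2 value from −0.31 to −0.12. Since this pattern is what chose the group, no p-value is given for it.

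The genes around ABCB1 were looked at in turn. RUNDC3B, which encodes a RUN-domain protein, lies on the opposite strand and overlaps ABCB1, but no exon of one overlaps an exon of the other in GENCODE 29. It had 9.21 ± 0.57, 9.81 ± 0.38 and 11.3 ± 1.4 CPM in control, siRNA 1 and siRNA 2, and did not pass the test with siRNA 1 (log2 change 0.09, adjusted p = 0.593) or siRNA 2 (0.30, adjusted p = 0.0595). It passed with siRNA 2 in DESeq2 (adjusted p = 0.0311), with a filter at a mean of 1 CPM (0.0437) and without siRNA 2 replicate 2 (0.0339). SLC25A40, a mitochondrial carrier next to it, had log2 changes of 0.13 under each siRNA and adjusted p-values of 0.120 and 0.126, and passed with siRNA 2 without siRNA 2 replicate 2, at 0.0467. ABCB4, the phospholipid exporter that is the closest relative of ABCB1 and lies beside it, had at most 11 counts in any library and was below the count filter.

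The genes whose levels most resembled those of ABCB1 were sought among 13848 tested genes with an official symbol and a mean of at least 1 CPM. The measure was the Pearson correlation of log2 CPM over the 9 libraries. The 5 highest were E2F6 (r = 0.979), LITAF (0.977), DNAJC2 (0.976), STMN3 (0.972) and PTDSS1 (0.972), and 37 genes exceeded 0.95. E2F6, a repressor of the E2F family, was at 70.6% and 96.3% of control with siRNA 1 and siRNA 2, and PTDSS1, a phosphatidylserine synthase, at 77.9% and 99.5%. The points share the 3 groups, so the values describe a common group pattern, and only 1 of the 5 genes, LITAF, was among the top 5 by Spearman correlation.

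**Figure D1:**
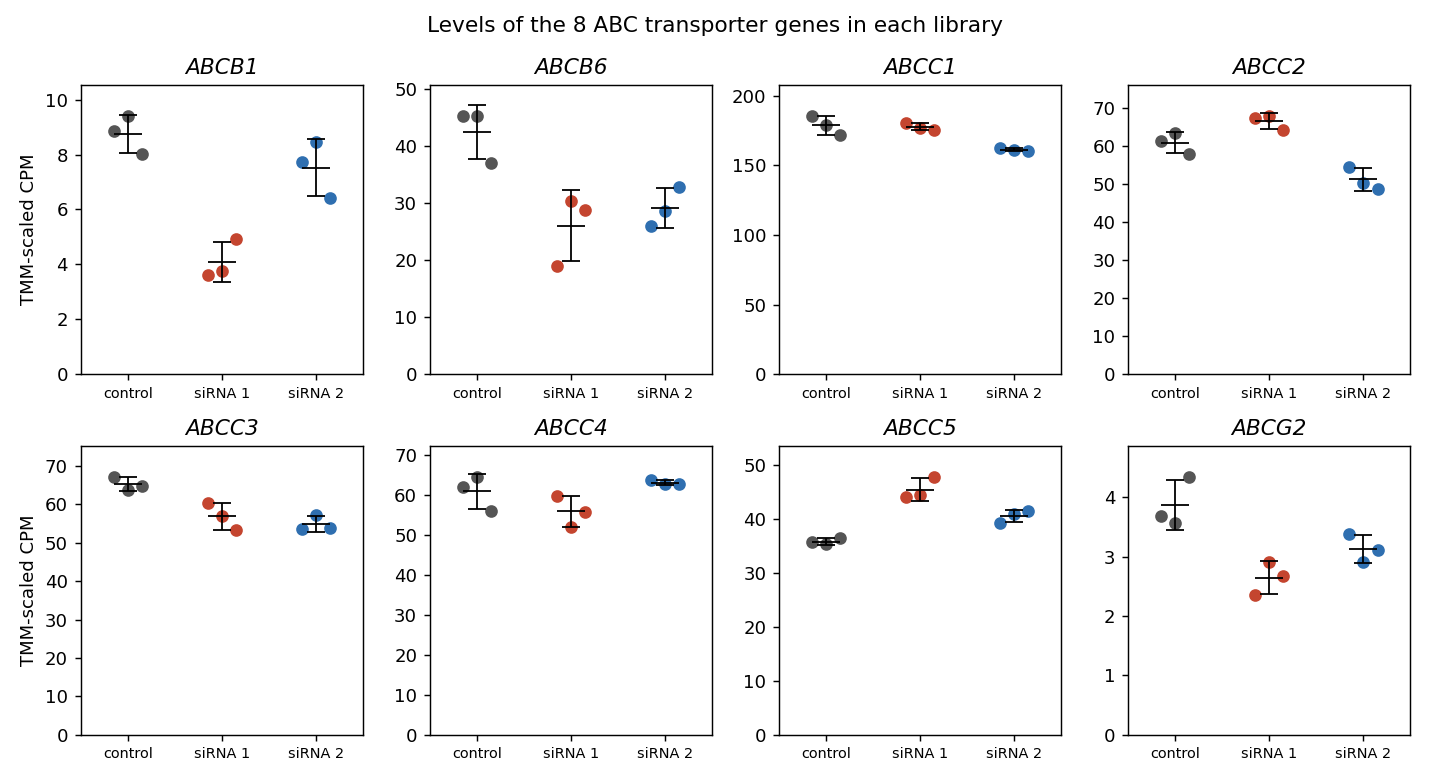
TMM-scaled CPM (y axis, from 0) of each of the 8 transporter genes in the control, siRNA 1 and siRNA 2 libraries (x axis). Points are libraries, and bars give the mean and SD of 3; the siRNA 1 points of ABCB1 all lie below its other 6 points, and the ABCC5 groups do not overlap.

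ABCG2 encodes the breast cancer resistance protein, which exports the topoisomerase poison SN-38, mitoxantrone and sulfate conjugates. The gene (ENSG00000118777, chromosome 4, 88090264 to 88231322, minus strand) had 243, 223 and 287 counts in control, 145, 203 and 182 with siRNA 1, and 223, 194 and 219 with siRNA 2. Both siRNA groups lay below the control libraries on the CPM scale. The siRNA 1 libraries were also below the siRNA 2 libraries, narrowly at the nearest pair, 2.904 and 2.906 CPM. The level was 3.87 ± 0.42 CPM in control, 2.65 ± 0.27 CPM with siRNA 1 and 3.13 ± 0.24 CPM with siRNA 2.

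ABCG2 fell with siRNA 1, by a log2 change of −0.54 (SE 0.15) with an adjusted p of 0.0155 in edgeR's quasi-likelihood test, and the siRNA 2 value of −0.30 (SE 0.15, 95% interval −0.63 to 0.02) did not pass, at an adjusted p of 0.171. The siRNA 1 call was lost without control replicate 3 or siRNA 1 replicate 1, at adjusted p-values of 0.0693 and 0.0652. The difference between the siRNAs, −0.24 (interval −0.57 to 0.09), did not pass either, at an adjusted p of 0.338, so a difference in ABCG2 response was not shown. PPM1K, a mitochondrial phosphatase gene beside ABCG2, fell with both siRNAs, from 10.2 ± 0.36 CPM to 6.24 ± 0.34 and 7.26 ± 0.057 CPM.

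ABCC1, or MRP1, exports glutathione and glucuronide conjugates and anthracyclines, and was the most abundant member. Its gene (ENSG00000103222, chromosome 16, 15949577 to 16143074, plus strand) had 186, 179 and 172 CPM in the control libraries, 181, 177 and 176 CPM with siRNA 1, and 162, 161 and 160 CPM with siRNA 2. The siRNA 2 libraries were all below the rest, and the siRNA 1 libraries lay within the control range. ABCC1 fell with siRNA 2, by a log2 change of −0.15 (SE 0.03, adjusted p = 0.00345), while with siRNA 1 the change was −0.0084 with a 95% interval of −0.08 to 0.06 (adjusted p = 0.884). The siRNAs differed by 0.14 (SE 0.03, adjusted p = 0.00796).

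ABCC2, or MRP2, exports conjugates across the apical membrane of hepatocytes and enterocytes. The gene (ENSG00000023839, chromosome 10, 99782640 to 99852594, plus strand) had 61.2, 63.3 and 58.0 CPM in the control libraries, 67.5, 67.9 and 64.2 CPM with siRNA 1, and 54.6, 50.4 and 48.7 CPM with siRNA 2. The 3 groups did not overlap, with siRNA 1 highest and siRNA 2 lowest. ABCC2 fell with siRNA 2, by −0.25 (SE 0.05, adjusted p = 0.00255), and the siRNA 1 value of 0.13 (SE 0.05) did not pass the test, at an adjusted p of 0.0696, although without siRNA 2 replicate 1 it did, at 0.0492. The siRNAs differed by 0.38 (SE 0.05, adjusted p = 0.00026), the largest difference between them among the 7 tested members when ABCB6 is counted alone.

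ABCC3, or MRP3, a basolateral exporter of glucuronides and bile acids, fell with both siRNAs. The gene (ENSG00000108846, chromosome 17, 50634777 to 50692252, plus strand) had 67.2, 63.8 and 64.7 CPM in the control libraries, 60.2, 56.9 and 53.4 CPM with siRNA 1, and 53.5, 57.2 and 53.9 CPM with siRNA 2. Every ORM1 siRNA library was below every control library. The log2 changes were −0.20 (SE 0.05, adjusted p = 0.00703) and −0.25 (SE 0.05, adjusted p = 0.00195), and the difference between the siRNAs was 0.05, with a 95% interval of −0.05 to 0.16 (adjusted p = 0.555).

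ABCC4, or MRP4, exports cyclic nucleotides, prostaglandins and nucleoside drugs. The gene (ENSG00000125257, chromosome 13, 95019829 to 95301475, minus strand) had 62.2, 64.6 and 56.0 CPM in the control libraries, 59.9, 52.1 and 55.8 CPM with siRNA 1, and 63.8, 62.8 and 62.7 CPM with siRNA 2. Both siRNA groups overlapped the control libraries but not each other. Neither change against control passed the test, at −0.12 (interval −0.25 to 0.0026, adjusted p = 0.136) and 0.05 (interval −0.07 to 0.18, adjusted p = 0.597). Without control replicate 3 the siRNA 1 change did pass, at −0.18 and an adjusted p of 0.0309. The difference between the siRNAs was −0.18 (SE 0.06) with an adjusted p of 0.0572, and it passed in DESeq2 (adjusted p = 0.0177), in limma-voom (0.0493), in a fit of only the groups compared (0.0348) and without control replicate 3 (0.0309) or siRNA 1 replicate 1 (0.0281).

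ABCC5, or MRP5, another exporter of cyclic nucleotides and nucleotide analogs, was the 1 tested member that rose. The gene (ENSG00000114770, chromosome 3, 183919934 to 184018015, minus strand) had 35.8, 35.4 and 36.5 CPM in the control libraries, 44.1, 44.6 and 47.9 CPM with siRNA 1, and 39.3, 41.0 and 41.5 CPM with siRNA 2. The 3 groups did not overlap, with control lowest and siRNA 1 highest. The log2 changes were 0.34 (SE 0.05, adjusted p = 0.000117) and 0.18 (SE 0.05, adjusted p = 0.0119), and the siRNAs differed by 0.16 (SE 0.05, adjusted p = 0.0254). The siRNA 2 call was lost without siRNA 2 replicate 3, at an adjusted p of 0.0519. The call between the siRNAs was lost without siRNA 1 replicate 3 or siRNA 2 replicate 1, 2 or 3, at 0.125, 0.106, 0.0608 and 0.0507, and with no count filter, at 0.0502.

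ABCB6 encodes a transporter of porphyrins and heavy metals found in mitochondrial, endosomal and plasma membranes, and also carries the Langereis blood group. The gene (ENSG00000115657, chromosome 2, 219209766 to 219219017, minus strand) had 45.2, 45.2 and 37.0 CPM in the control libraries, 18.9, 30.4 and 28.7 CPM with siRNA 1, and 25.9, 28.5 and 32.8 CPM with siRNA 2. Both siRNA groups lay below the control libraries and overlapped each other, and siRNA 1 replicate 1 was lowest. ABCB6 fell with siRNA 1, by −0.70 (SE 0.15, adjusted p = 0.00353), and with siRNA 2, by −0.55 (SE 0.15, adjusted p = 0.0173). The siRNA 2 call was lost without control replicate 1 or 2 or siRNA 2 replicate 1 or 2, at adjusted p-values of 0.0617, 0.0652, 0.0713 and 0.0507, and with no count filter, at 0.0520.

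ABCB6 shares exons with a second annotated protein-coding gene on the same strand, ENSG00000284820, which runs from 219209772 to 219222738 and also shares exons with the autophagy gene ATG9A. In GENCODE 29, 54.7% of the 5234 exonic bases of ABCB6 are also exonic in that gene, so the counting could divide the same reads between the pair. ENSG00000284820 had 50.4, 46.9 and 53.7 CPM in the control libraries, 31.7, 15.04 and 18.6 CPM with siRNA 1, and 41.7, 36.2 and 34.4 CPM with siRNA 2. The library with the lowest ABCB6 level with siRNA 1, replicate 1, had the highest level of the overlapping gene in that group.

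The summed level of the pair was far steadier than either gene alone, at 95.7, 92.1 and 90.7 CPM in the control libraries, 50.6, 45.4 and 47.4 CPM with siRNA 1, and 67.5, 64.7 and 67.2 CPM with siRNA 2. The coefficient of variation with siRNA 1 was 5.50% for the sum, against 23.8% for ABCB6 and 40.2% for ENSG00000284820. The share of the pair's counts given to ABCB6 ranged from 37.4% to 66.9% among the siRNA 1 libraries. The summed groups were fully apart, with siRNA 1 lowest.

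With the pair counted together, an alternative added after the values were seen, the log2 change was −0.96 (SE 0.04, adjusted p = 1.71e-08) with siRNA 1 and −0.48 (SE 0.04, adjusted p = 6.72e-06) with siRNA 2. The difference between the siRNAs was then −0.48 (SE 0.04, adjusted p = 1.48e-05), against −0.16 (SE 0.15, adjusted p = 0.564) for ABCB6 alone. For the overlapping gene alone that difference was −0.78 (SE 0.20, adjusted p = 0.0175). Over 9 fits that each left out 1 library, the summed change stayed between −0.999 and −0.921 with siRNA 1 and between −0.50 and −0.46 with siRNA 2. Of the exonic bases of ENSG00000284820, 34.9% are also exonic in ATG9A. With ATG9A counted in as well, the log2 change was −0.67 (SE 0.03) with siRNA 1 and −0.25 (SE 0.03) with siRNA 2. ATG9A fell with siRNA 1, from 106 ± 2.2 to 77.1 ± 2.4 CPM, and was at 101 ± 6.0 CPM with siRNA 2, where it did not pass the test (adjusted p = 0.309). How much of the fall belongs to ABCB6 transcripts themselves cannot be told from gene counts.

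**Figure D2:**
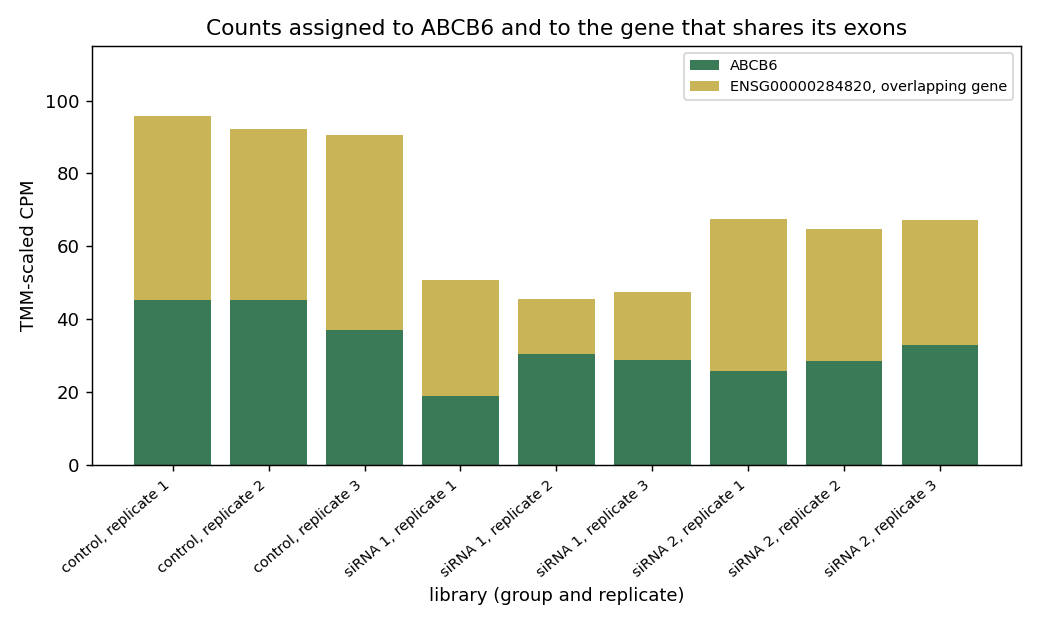
Stacked bars give the TMM-scaled CPM (y axis, from 0) assigned to ABCB6 and to ENSG00000284820, which shares exons with it, in each of the 9 libraries (x axis). The division between the genes varies within siRNA 1, while the summed height is 90.7 to 95.7 CPM in control, 45.4 to 50.6 CPM with siRNA 1 and 64.7 to 67.5 CPM with siRNA 2.

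Of the 7 members other than ABCB1, 1 rose and 3 fell with siRNA 1, where 30.5% of the 20932 tested genes were called at an adjusted p below 0.05 (15.7% higher and 14.8% lower). Under siRNA 2, 1 rose and 4 fell, where 26.7% of all genes were called (14.2% higher and 12.6% lower). Between the siRNAs 3 were higher with siRNA 1 and 0 lower, where 17.9% of all genes were called (8.09% higher and 9.83% lower), and 4 did not pass. The median log2 change of the 7 was −0.12 with siRNA 1 and −0.25 with siRNA 2, with medians over all genes of 0.0073 and −0.0035. Both comparisons share the control libraries, and since they are the ones in which ABCB1 was noticed, nothing is read from these counts beyond the members themselves. The members called with both siRNAs were ABCB6 and ABCC3, which fell, and ABCC5, which rose. Only the ABCC3 calls held in all alternatives, since the siRNA 2 calls of ABCB6 and ABCC5 were lost in some, as given above. The ABCB6 counts also depend on the uncertain division of reads with its overlapping gene.

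**Figure D3:**
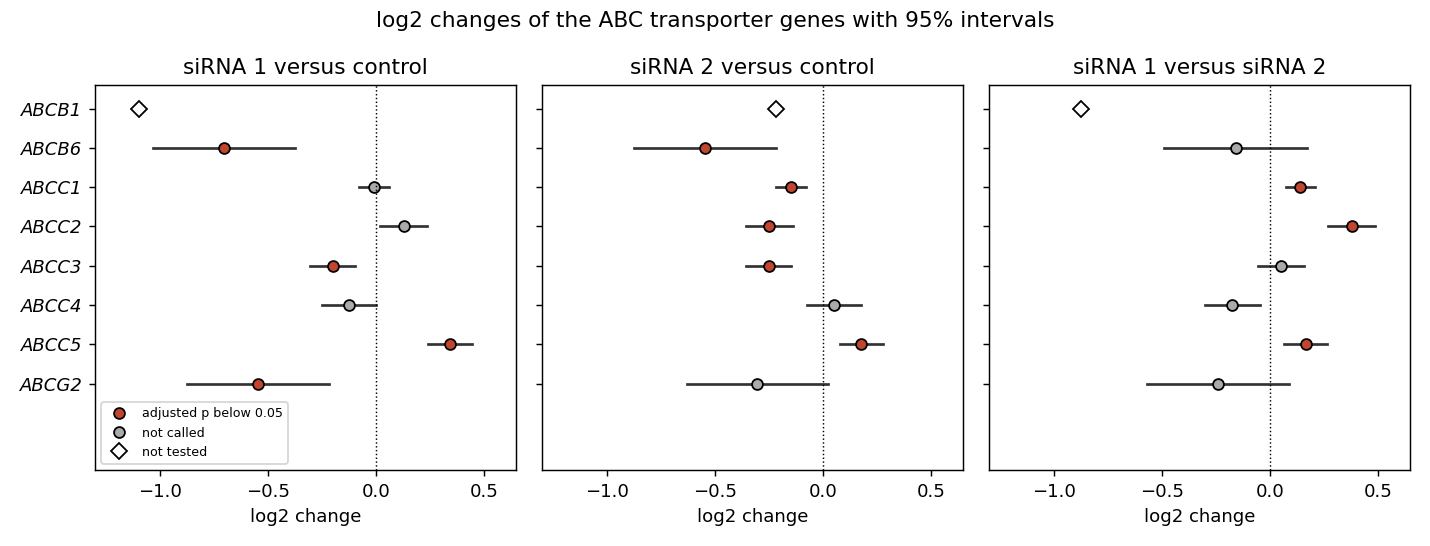
Log2 change (x axis) of each transporter gene (y axis) in the 3 comparisons, with unadjusted 95% intervals as lines and called genes in red. ABCB1 is an open diamond with no interval because it was chosen for this pattern, and ABCC2 lies at 0.13 in the first panel and −0.25 in the second.

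Per length of exon, the order of the members in control was ABCC1, ABCB6, ABCC2, ABCC4, ABCC3, ABCC5, ABCB1 and ABCG2. The levels per kilobase were 23.6 ± 0.88 CPM for ABCC1, 8.11 ± 0.91 for ABCB6, 7.77 ± 0.35 for ABCC2, 7.06 ± 0.51 for ABCC4, 6.79 ± 0.18 for ABCC3, 3.14 ± 0.052 for ABCC5, 1.51 ± 0.12 for ABCB1 and 0.767 ± 0.083 for ABCG2. Neighbours from ABCB6 to ABCC3 in this order overlapped in their control libraries, and ABCC1, ABCC5, ABCB1 and ABCG2 each stood apart from the next. Of 20249 tested genes with a length, 91.1% were below ABCC1, 41.8% below ABCB1 and 33.0% below ABCG2. Counted alone, ABCB6 ranked 5 with both siRNAs, where its libraries (3.62 to 5.81 and 4.95 to 6.27 CPM per kilobase) overlapped those of ABCC3 (5.55 to 6.27 and 5.57 to 5.95), and its place depends on the uncertain division of reads described above. ABCC1 stayed first and ABCB1 and ABCG2 last. Lengths are those of all exons of a gene in GENCODE 29 joined, which may exceed those of the transcripts in these cells.

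The other 40 genes of the ABC family include lipid, peptide, peroxisomal and iron-sulfur transporters and the soluble ABCE and ABCF proteins, which act in translation. Of these, 30 passed the count filter, and the 10 others, ABCA8, ABCA13, ABCB4, ABCB5, ABCB11, ABCC8, ABCC9, ABCC12, ABCG5 and ABCG8, had at most 11 counts in any library. Under siRNA 1, 1 of the 30 rose and 11 fell, with a median log2 change of −0.24, so 40% were called, against 30.5% of all tested genes. Under siRNA 2, 3 rose and 9 fell, with a median of −0.16, again 40%, against 26.7% of all genes. Between the siRNAs 1 was higher with siRNA 1 and 7 lower, or 26.7% of the list, against 17.9% of all genes. The shares over all genes depend on the count filter and were larger with a filter at a mean of 1 CPM, as described below. The list is therefore not shown to be called more often than genes of like level. The genes that rose with siRNA 2, ABCA2, ABCE1 and ABCF2, did not pass with siRNA 1.

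ABCG1, which exports cholesterol to lipoproteins, fell with both siRNAs, from 4.21, 4.41 and 3.79 CPM in the control libraries to 1.74, 1.62 and 2.40 CPM with siRNA 1 and 1.71, 1.68 and 1.59 CPM with siRNA 2. Its log2 changes were −1.11 (SE 0.18, adjusted p = 0.000485) and −1.31 (SE 0.18, adjusted p = 0.00017). ABCA1, the other main cholesterol exporter, was at 4.07 ± 0.44 CPM in control and 3.15 ± 0.17 CPM with siRNA 1, which did not pass (adjusted p = 0.154), and fell to 2.30 ± 0.55 CPM with siRNA 2 (adjusted p = 0.00494). The libraries of each ORM1 siRNA were all below control for both genes.

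ABCD3 imports fatty acids into peroxisomes. It fell with siRNA 1, from 101 ± 3.2 to 63.7 ± 0.46 CPM, and was at 98.0 ± 0.80 CPM with siRNA 2, where it did not pass (adjusted p = 0.329). The siRNAs differed for ABCD3 by −0.62 (SE 0.03, adjusted p = 1.71e-07). ABCA3, a phospholipid transporter of lamellar bodies, rose with siRNA 1, from 14.5 ± 1.2 to 21.1 ± 1.7 CPM, and was at 15.3 ± 1.1 CPM with siRNA 2.

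**Figure D4:**
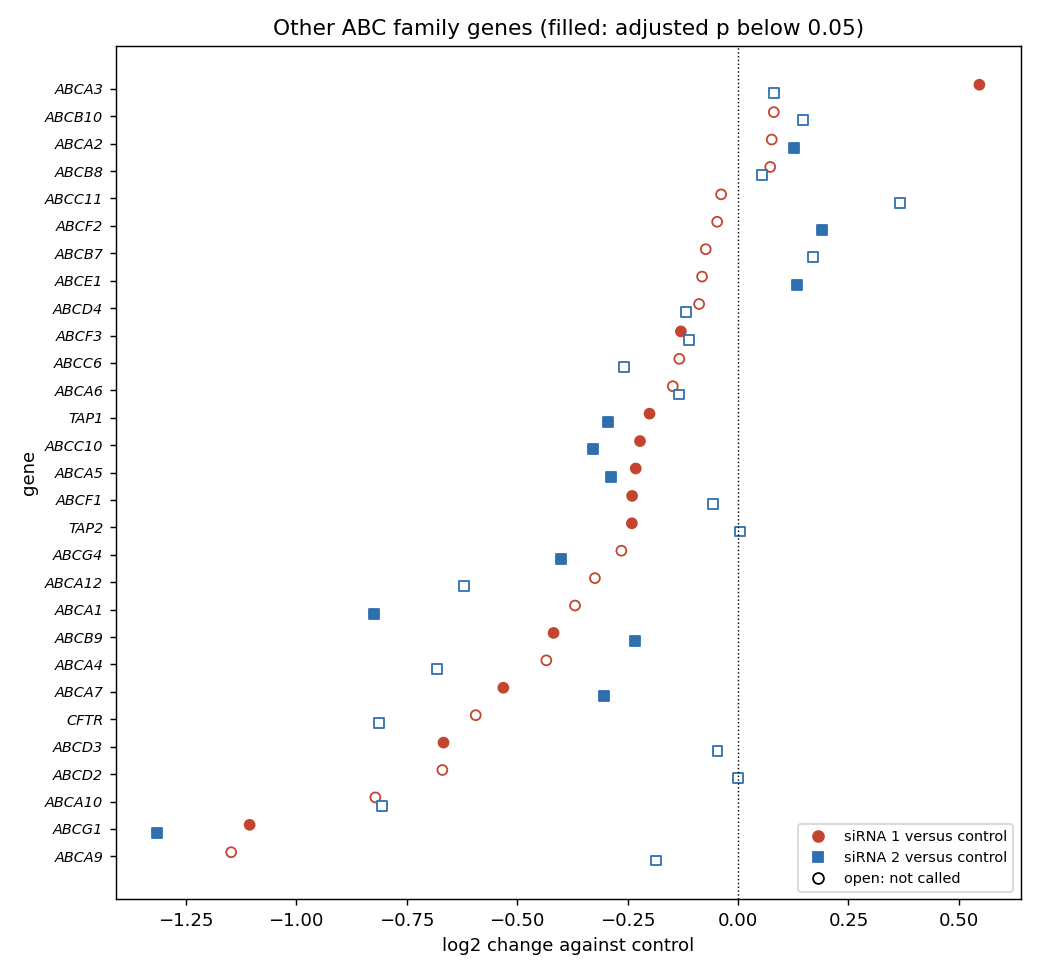
Log2 change against control (x axis) of other ABC family genes that passed the count filter and are reported here (y axis), with circles for siRNA 1 and squares for siRNA 2, filled where the adjusted p was below 0.05. ABCG1 lies at −1.11 and −1.31, and ABCA3 is the 1 gene with a filled circle to the right of 0.

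Known regulators of transporter genes moved in both directions. Of 27 tested genes of this list of 30, 10 rose and 5 fell with siRNA 1 and 8 rose and 4 fell with siRNA 2, with medians of 0.09 and 0.02. The shares called were 55.6% and 44.4%, against 30.5% and 26.7% of all tested genes. The background share, here and for the other lists, depends on the count filter. With a filter at a mean of 1 CPM, 6519 and 5795 of 14720 genes were called, which is a larger share. NFYA, the DNA-binding subunit of the CCAAT factor NF-Y, rose from 48.6 ± 0.68 CPM to 69.1 ± 0.70 and 57.1 ± 1.7 CPM. Of the other NF-Y subunits, NFYB rose with both siRNAs, but NFYC fell with both, so the subunits did not move together. NFE2L2 and PPARD also fell with both siRNAs, and HIF1A fell with siRNA 1. YBX1, a nucleic-acid binding protein linked to the ABCB1 promoter in human cells, rose from 703 ± 22.3 CPM to 801 ± 10.7 and 872 ± 23.4 CPM. RXRB, a partner of nuclear receptors, rose from 45.7 ± 0.62 CPM to 57.7 ± 2.9 and 53.1 ± 2.8 CPM. NR1H3, the oxysterol receptor LXR alpha, whose known targets include ABCA1 and ABCG1, rose from 9.31 ± 0.52 CPM to 12.6 ± 0.31 and 13.5 ± 0.82 CPM. These are levels of RNA, and factor activity was not measured.

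Drug uptake carriers bring drugs and metabolites into cells. Of 26 tested genes of a list of 30, 2 rose and 6 fell with siRNA 1 and 3 rose and 5 fell with siRNA 2, with medians of −0.07 and −0.20. The share called was 30.8% in each comparison, near the 30.5% and 26.7% of all tested genes. SLC29A2, an equilibrative nucleoside carrier, rose from 36.0 ± 0.72 CPM to 45.2 ± 0.99 and 41.4 ± 1.1 CPM. SLC22A5, the carnitine carrier, fell with siRNA 1, from 24.4 ± 0.99 to 19.1 ± 1.8 CPM. It was at 21.1 ± 1.6 CPM with siRNA 2 (adjusted p = 0.0818, but 0.0392 in DESeq2 and 0.0473 with library size only). The organic anion carriers SLCO3A1 and SLCO1B1 fell with siRNA 1, from 3.66 ± 0.21 to 1.83 ± 0.69 CPM and from 1.11 ± 0.41 to 0.430 ± 0.061 CPM, and were at 2.39 ± 0.50 and 0.851 ± 0.082 CPM with siRNA 2. Neither passed there (adjusted p = 0.0940 and 0.400). SLCO3A1 did pass there in DESeq2 (0.0481), in limma-voom (0.0468), in a fit of only the groups compared (0.0328) and without siRNA 1 replicate 1 (0.0473) or 3 (0.0481). SLCO2B1 was at 0.451 ± 0.095 CPM in control and 0.0626 ± 0.065 and 0.0442 ± 0.039 CPM with the ORM1 siRNAs, and its calls (adjusted p = 0.0477 and 0.0298) were lost without any 1 of the control libraries, with adjusted p-values of 0.0950 to 0.148 and 0.0663 to 0.104. They were also lost without some of the ORM1 siRNA libraries, at up to 0.126 and 0.0768, and with no count filter, at 0.108 and 0.0725.

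Enzymes that oxidise or conjugate drugs supply many substrates of the ABCC exporters. Of 36 tested genes of a list of 46, 3 rose and 8 fell with siRNA 1 and 6 rose and 9 fell with siRNA 2, with medians of −0.08 and −0.11. The shares called were 30.6% and 41.7%, against 30.5% and 26.7% of all tested genes, so the first was near the background. The siRNA 1 count was 7 without siRNA 1 replicate 2. The list leaves out the cytochrome P450 gene CYP2E1, which was used here only as a hepatocyte marker. CYP2E1 fell from 1.74 ± 0.58 CPM to 0.672 ± 0.070 and 0.346 ± 0.19 CPM. Its log2 changes were −1.37 and −2.33 (edgeR adjusted p = 0.0119 and 0.000639). TPMT, which methylates thiopurines, fell from 38.6 ± 1.5 CPM to 18.0 ± 1.2 CPM with siRNA 1 and 29.02 ± 0.85 CPM with siRNA 2, and the siRNAs differed by −0.69 (SE 0.06, adjusted p = 1.2e-05). CYP1B1, a cytochrome P450 of hydrocarbon and oestrogen metabolism, rose from 1.61 ± 0.10 CPM to 4.43 ± 0.85 and 2.94 ± 0.30 CPM. NQO1, a quinone reductase, rose from 283 ± 7.9 CPM to 336 ± 7.9 and 459 ± 12.2 CPM, with the larger change with siRNA 2 (difference −0.45, SE 0.03, adjusted p = 1.64e-06).

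NAT1, an arylamine acetyltransferase, fell from 5.12 ± 0.86 CPM to 3.66 ± 0.35 and 3.43 ± 0.093 CPM. Its calls (adjusted p = 0.0292 and 0.0135) were lost without control replicate 2, at 0.110 and 0.0580, or control replicate 3, at 0.101 and 0.0542. The NAT1 call for siRNA 1 was also lost without siRNA 1 replicate 2 or 3, at 0.0754 and 0.103, and with no count filter, at 0.0548. GGT1, which cleaves glutathione outside the cell, was at 22.2 ± 2.4 CPM in control and 23.1 ± 2.7 CPM with siRNA 1, and fell to 15.4 ± 3.6 CPM with siRNA 2 (adjusted p = 0.0229). That call was lost without control replicate 2 or 3 or siRNA 2 replicate 1, at adjusted p-values of 0.0698, 0.0857 and 0.0512, and with no count filter, at 0.0605.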

How the data were processed

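RNA-seq gene counts of 9 HCT116 libraries were analysed. The authors deposited whole-number counts per Ensembl gene identifier, which the labels call raw, and the submitters' processing notes name hg19. The aligner, counting tool, annotation and strand setting are not stated in the material used here. Of values from 1 to 40, 28.0% were multiples of 4. No expected share was computed, and whether counts equal fragments cannot be told from this value. Names came from Ensembl and RefSeq tables, and coordinates and exon lengths from GENCODE 29 on GRCh38. Groups followed the labels.

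Genes kept by filterByExpr (20932) were scaled by TMM (factors 0.985 to 1.014) and fitted over all 9 libraries in edgeR 4.0.16 (R 4.3.3) by its quasi-likelihood test, with Benjamini-Hochberg adjustment over all genes and calls below 0.05. The SE is the log2 change over the square root of F. Alternatives used DESeq2 1.42.0, limma 3.58.1 (voom), other scaling and filters, the compared groups only, a replicate block and each library left out. On simulated counts for siRNA 1 against control over 20932 genes, with 50 genes changed at each size, the test recovered 22%, 44%, 68% and 78% for 1.25-, 1.5-, 2- and 3-fold changes, and 10 of 116 calls were false. Far fewer genes were changed there than the 6389 called in the data. The adjustment was therefore stricter, and these rates need not hold for the data.

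The members and lists were chosen with earlier results of these data known. Named genes were ORM1, ORM2, the 8 members, the neighbours of ABCB1, ABCG2 and ABCB6, ABCC6 beside ABCC1, up to 5 called genes of each of 4 lists with the largest change against control, and the 5 genes most correlated with ABCB1. Of these, 2 list genes are not reported here, though the list counts include them. Genes outside this rule were named after their values were seen. Tables and figures used Python 3.11.15, pandas 2.3.3, numpy 2.4.6 and matplotlib 3.10.9.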

Additional observations from a re-analysis of the deposited data

Results flagged for a closer look

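Of the 7 tested members, 3 responded differently to the siRNAs by the direct comparison of siRNA 1 with siRNA 2 in edgeR's quasi-likelihood test, where 17.9% of all tested genes were called and 8.09% were higher with siRNA 1. ABCB6 alone did not differ (−0.16, adjusted p = 0.564). Counted together with its overlapping gene it did (−0.48, adjusted p = 1.48e-05), as did the overlapping gene alone (−0.78, adjusted p = 0.0175). The difference of the pair therefore cannot be assigned to ABCB6. ABCC2 was 0.38 higher with siRNA 1 on the log2 scale (adjusted p = 0.00026), with 66.5 ± 2.0 CPM with siRNA 1 and 51.2 ± 3.0 CPM with siRNA 2, and all 3 siRNA 1 libraries were above all 3 siRNA 2 libraries. ABCC1 was 0.14 higher (adjusted p = 0.00796), with 178 ± 2.5 and 161 ± 0.90 CPM and no overlap. ABCC5 was 0.16 higher (adjusted p = 0.0254), with 45.5 ± 2.1 and 40.6 ± 1.1 CPM and no overlap, and this call was lost without siRNA 1 replicate 3 or any 1 of the siRNA 2 libraries, at adjusted p-values of 0.0507 to 0.125. ABCC4 went the other way, at −0.18 with no overlap, and did not pass (adjusted p = 0.0572). It passed in DESeq2 (0.0177), in limma-voom (0.0493) and in other alternatives given above. Groups of 3 libraries are too small for a check for outlying libraries.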

How the results depend on the processing

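The counts of called members moved by no more than 1.5 times under the alternatives, which gave 3 to 5 with siRNA 1, 4 to 5 with siRNA 2 and 2 to 4 between the siRNAs. Of 360 recomputed log2 changes of the members other than ABCB1, 335 kept their direction and their side of the threshold. These include changes that the main fit did not call and fits that left out a library of the group not compared. The share kept is therefore not a measure of how steady the calls are, and calls that were lost are given with each gene above. Between the siRNAs, uptake carriers called went from 4 to 2 with no count filter and with the replicate block, and enzymes from 5 to 8 in DESeq2 and 3 with no count filter. Leaving out 1 library gave 3 to 8 regulators, 2 to 4 uptake carriers and 3 to 6 enzymes between the siRNAs, and 7 to 14 enzymes with siRNA 1 against control. Log2 changes that changed sign when 1 library was left out ranged from −0.035 to 0.020 for ABCC1 and −0.026 to 0.15 for GGT1 (siRNA 1 against control) and from −0.0054 to 0.10 for ABCC4 (siRNA 2 against control). Between the siRNAs they ranged from −0.28 to 0.024 for ABCB6, −0.87 to 1.18 for ORM2, −0.054 to 0.040 for SLC25A40 and −0.52 to 1.09 for SLCO2B1. SLC25A40 also changed sign in limma-voom (0.00033), with library size only (0.023) and with a filter at a mean of 1 CPM (0.0046). None of these changes passed the test, and the causes were not tested. Same-numbered libraries did not deviate together (correlations −0.0190 to 0.0371 over 9 pairs), and the replicate block moved the called genes from 6389 to 6452 with siRNA 1 and added the ABCC2 call there (0.13, adjusted p = 0.0288), while both SLCO2B1 calls against control were lost (adjusted p = 0.0965 and 0.0626). Genes below 1 CPM, such as SLCO2B1, rest on few counts.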

Other observations

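ABCC6, the relative of ABCC1 that lies beside it, was at 3.64 ± 0.63 CPM in control, 3.32 ± 0.24 CPM with siRNA 1 and 3.05 ± 0.33 CPM with siRNA 2, and passed neither test (adjusted p = 0.609 and 0.299). Its pseudogenes share sequence with it, so its counts are uncertain.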
